A study of Mus musculus with 12 samples.

Results

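Transforming growth factor beta (TGF-β) signalling was described through 9 genes of the SCC35 tumour series: the ligands Tgfb1, Tgfb2 and Tgfb3, the receptors Tgfbr1 and Tgfbr2, and the response genes Pmepa1, Smad7, Skil and Tgfbi. The genes were taken by symbol from the feature lists, and all 9 were found among the 32285 genes counted. The series set tumours of control lines 15 and 18 against tumours of Mif knockout lines 19 and 24, where Mif is the gene of a cytokine, macrophage migration inhibitory factor. All 4 carry the label SCC35 Mif KO, the controls with the word control added. The labels used here do not say how the knockout was made, what the control lines went through, how many clones a line stands for, which strain hosted the tumours, or what a day 0 sample is. The hashtag sheet gives samples of days 0, 6, 10 and 16. Tumours were dissociated, tagged with hashtag antibodies, sorted as live cells and run in 6 droplet libraries of the 5′ kit. After demultiplexing, 21 control and 21 knockout hashtag samples entered the comparisons, and 3 samples marked WT in the hashtag sheet entered none.

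TGF-β ligands are secreted in a latent complex that must be activated before it can be bound. Active ligand binds the type II receptor, which recruits and phosphorylates the type I receptor. That receptor phosphorylates Smad2 and Smad3, which join Smad4 and act on target genes in the nucleus. Several targets, Smad7, Skil and Pmepa1 among them, restrain the pathway that induces them, and their transcripts are commonly read as a sign of recent signalling. TGF-β is known in tumours for shaping fibroblasts and matrix and for restraining T cells.

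The promoter stretches of Tgfb2 and Tgfbi are shown because Tgfb2 was a ligand held mostly by the cells of the tumour lines, and Tgfbi the response gene that went against the other 3 between knockout and control line cells. The sequences are from RefSeq (GRCm38.p6), 5′ to 3′ on the gene's strand. The stretch of Tgfb2 lies at chr1:186705990-186706239 on the minus strand, and that of Tgfbi at chr13:56609336-56609522 on the plus strand. Capitals mark the Smad-binding letters CAGAC or, for the other strand, GTCTG.
Tgfb2: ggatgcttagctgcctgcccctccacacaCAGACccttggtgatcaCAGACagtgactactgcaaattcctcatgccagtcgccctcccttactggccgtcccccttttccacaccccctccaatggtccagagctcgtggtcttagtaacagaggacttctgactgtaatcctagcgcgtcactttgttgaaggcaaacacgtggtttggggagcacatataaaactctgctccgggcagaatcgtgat
Tgfbi: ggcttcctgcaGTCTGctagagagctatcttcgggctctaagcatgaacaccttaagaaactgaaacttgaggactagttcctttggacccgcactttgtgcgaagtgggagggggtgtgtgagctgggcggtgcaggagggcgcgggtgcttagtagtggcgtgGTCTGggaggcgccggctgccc
The letters begin 221 and 204 bases before the RefSeq start in Tgfb2, and 239 and 85 bases before it in Tgfbi, where the printed stretch stops short of that start. Of 32851 upstream windows of 250 bases, 42.2% held the letters on either strand, so a match is common. They were in 4 of the 6 promoters found for 5 of the 9 genes (Tgfb1, Tgfb2, Tgfbi, Tgfbr1 with 2 and Tgfbr2). The palindrome GTCTAGAC was in 0.167% of all windows and in 0 of these 6. Tgfb3, Pmepa1, Smad7 and Skil had no entry in the promoter table.

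In GENCODE M21 coordinates (GRCm38), the ligand genes lie at chr7:25687002-25705077 (Tgfb1), chr1:186622792-186705989 (Tgfb2) and chr12:86056745-86079041 (Tgfb3). The receptor genes lie at chr4:47353222-47414931 (Tgfbr1) and chr9:116084293-116175360 (Tgfbr2). Of the response genes, Pmepa1 lies at chr2:173224458-173276533, Skil at chr3:31095058-31122577 and Tgfbi at chr13:56609523-56639562.

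The libraries held 151385933 to 239699029 gene UMIs (unique molecular identifiers, each standing for 1 captured transcript) each, and 163866 barcodes passed the filters, 100557 of them with a single hashtag. Cells were put in classes by marker genes: a class needed at least 20 cells in a tumour to be summed there. Cells with at most 2 markers of any host list, at most 1 T-cell marker and no Ptprc, the pan-leukocyte gene, are called line cells, since no marker identified it as tumour: of 7 melanocytic markers, 6 had a count, Tyr was at 0, and their summed level was 15.5 CPM (UMIs per 1000000 of the sum) in control and 12.1 in knockout samples. Libraries of a pair shared 3.4 to 4.8% of the smaller library's barcodes, and 17.9 to 30.9% of barcodes in a library carried several hashtags and were left out. In line cells Mif stood at 2315 ± 365 CPM in controls (SD, n = 21; 1783 to 3113) and at 275 ± 232 in knockouts (n = 21; 42.7 to 729), with no overlap. Line 24 had a mean of 461 and line 19 of 105.

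Each level is in CPM of the class in that sample, and is compared for 1 gene between classes or groups, not between genes. Line cells were summed in 42 samples (61625 cells), 7 of them of day 0, macrophages and monocytes in 36 (13656 cells), 1 of them of day 0, T cells in 32 (4227 cells), fibroblasts in 30 (1551 cells), dendritic cells in 18, osteoclast-like cells in 13, all of control tumours, and natural killer (NK) cells in 9. No other class had a sum of day 0. Orders of levels are over these 7 classes and pool both groups, whose shares differ by class: 7 of the 9 NK sums are of knockout tumours. Neutrophils, summed in 4 tumours, and endothelial cells, in 1, are left out of them; the endothelial sum had Tgfb1 and Tgfbr2 at 158 CPM each, and the neutrophil means were 107 ± 55.6 for Tgfb1 and 52.2 ± 43 for Tgfbr1. Levels by class are a description, since the genes were chosen with results of these data known.

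Tgfb1, the ligand typical of leukocytes, was highest of the 7 classes in NK cells (247 ± 80 CPM, SD, n = 9), macrophages (189 ± 46, n = 36) and T cells (180 ± 65, n = 32), which lay within their spread of each other. Fibroblasts followed at 99.4 ± 29.9 (n = 30), beyond that spread, and did not differ beyond it from dendritic cells at 99.2 ± 36.9. Osteoclast-like cells at 79.7 ± 30.6 and line cells at 55.4 ± 13.3 (n = 42) closed the order, again within the spread. Tgfb2, an isoform of mesenchymal and epithelial cells, ran the other way. Its line-cell level was 44.5 ± 12.2 and its fibroblast level 35.5 ± 12.7, and all leukocyte classes lay at or under 17.8. Tgfb3 was at 18.2 ± 8.4 in fibroblasts and 17 ± 12.2 in line cells, which lay within each other's spread, and at 9.3 or less in each other class. In control samples alone fibroblasts were at 16.4 ± 7.96 and line cells at 7.93 ± 5.63. In knockout samples that order turned, with fibroblasts at 20.5 ± 8.77 and line cells at 26.1 ± 9.88.

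Among the 7 classes the receptor genes had their highest levels in osteoclast-like cells. Tgfbr1, the type I receptor, stood there at 83.8 ± 17.9 (n = 13), followed by macrophages at 53.0 ± 16.4 and fibroblasts at 25.2 ± 10.1, each step beyond the spread. Line cells (20.1 ± 5.1) and T cells (16.7 ± 10.6) lay within the spread of fibroblasts and of the classes between them. Tgfbr2, the type II receptor that binds ligand, was at 140 ± 53 in osteoclast-like cells, 117 ± 36.5 in fibroblasts and 82.3 ± 17.7 in T cells, each within the spread of the next. Dendritic cells stood lowest, at 15.6 ± 7.9, beyond the spread below line cells at 50.3 ± 10.9.

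Among the response genes, Pmepa1 and Tgfbi had a class that stood above the next beyond the spread. Pmepa1, a membrane protein that ties up receptor-activated Smads, was at 480 ± 119 in fibroblasts against 163 ± 48.5 in osteoclast-like cells, the next. T cells had 128 ± 54.6 and line cells 57.5 ± 46.7. Smad7, which blocks and degrades the type I receptor, was led by NK cells (114), T cells (111 ± 48) and fibroblasts (78.7 ± 21.0), within each other's spread. In control tumours alone that order turned, with fibroblasts at 82.5, T cells at 79.6 and NK cells (n = 2) at 60.9. Skil, a co-repressor of Smads, stood highest in dendritic cells (124 ± 64.5), then in NK cells (98), macrophages (79.4 ± 23.4) and T cells (69.3 ± 38.0), with no step beyond the spread. In control tumours alone NK cells were at 37.2 (n = 2), below dendritic cells (91), macrophages (68.6), fibroblasts (42.5) and T cells (39.8). Tgfbi, a secreted matrix protein, stood at 984 ± 362 in macrophages against 323 ± 90.8 in osteoclast-like cells, and at 154 ± 103 in line cells. The plot of levels by class shows these orders gene by gene.

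**Figure D1:**
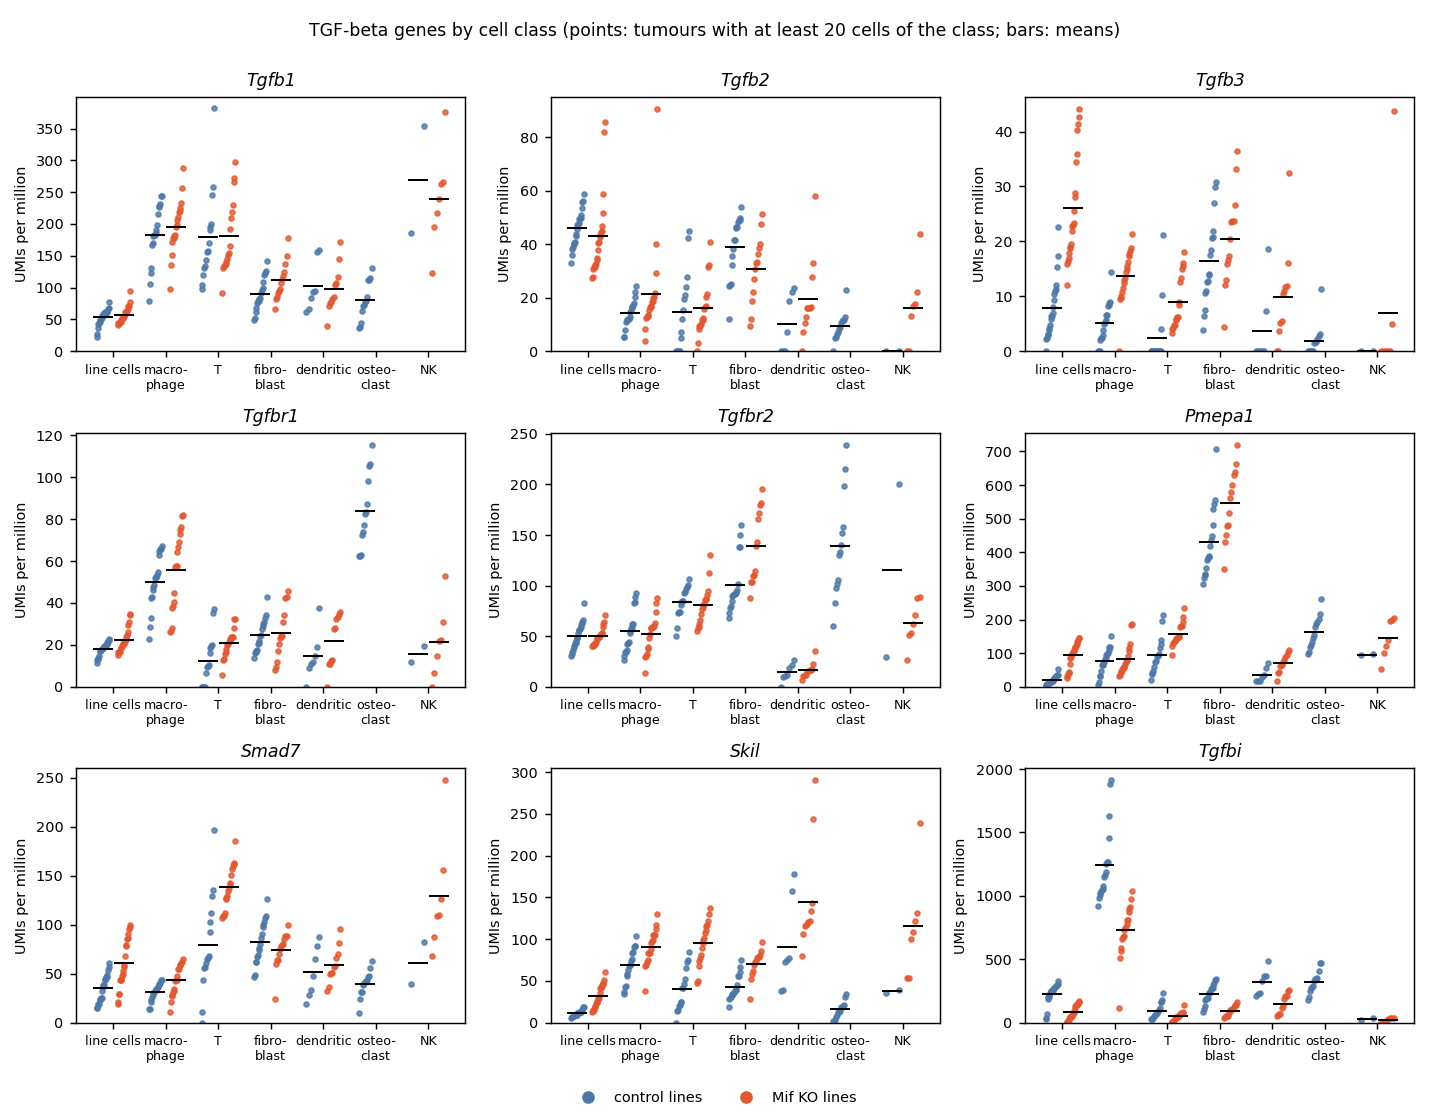
Levels of the 9 genes in each cell class, in CPM of the class on the vertical axis; each point is 1 sample and each bar the mean of the control or knockout samples. Over both groups Pmepa1 is highest in fibroblasts (480), Tgfbi in macrophages (984) and Tgfb2 in line cells (44.5), while Tgfb1 is highest in NK cells (247).

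The share of each ligand's transcripts by class depends on the number of cells captured as well as on the level per cell, and these cannot be told apart in a share. Of Tgfb1 UMIs in gated cells, line cells held 58.9% (exact 95% binomial interval 57.9 to 59.8), 62.7, 79.6 and 41.5% in the tumours of lines 15, 18, 19 and 24. Macrophages held 29.4, 28.1, 8.5 and 35.4% in the same order, and T cells 1.6, 1.8, 5.1 and 15.9%. Line cells made up 65.4, 73.7, 78.8 and 61.8% of the gated cells, so they held less of the Tgfb1 than of the cells in lines 15, 18 and 24. Tgfb2 was held by line cells to 93.0, 91.9, 94.8 and 81.5%, more than their share of cells in each line. A share of cells is not a share of all UMIs. Over all samples the median line cell held 6574 UMIs, the median macrophage 2381 and the median T cell 1672. Of Tgfb3, line cells held 82.3, 87.6, 96.1 and 78.6%. In these pooled UMIs line 19 was highest and line 24 lowest for each ligand in the part held by line cells, so the shares do not divide by group. As means over tumours, line 24 was lowest for Tgfb1 (44.4 ± 10.1%, SD, n = 8) and Tgfb2 (82.0 ± 6.02%), while for Tgfb3 lines 15 (79.3 ± 10.97%, n = 9) and 24 (79.4 ± 7.10%) lay within their spread. The binomial interval given above covers counting error only.

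The first comparison asked how these genes differed between knockout and control line cells with day in the model. Differences are log2 fold changes, knockout minus control, and each p is edgeR's after Benjamini-Hochberg adjustment. Pmepa1, Skil, Tgfb3, Smad7 and Tgfbr1 rose, Tgfbi fell, and Tgfb1, Tgfb2 and Tgfbr2 did not pass the threshold. In all, 6 of 9 genes were called, against 51.4% of the 11840 genes tested, 26.2% higher and 25.2% lower (adjusted p under 0.05 by edgeR's quasi-likelihood test with Benjamini-Hochberg adjustment over all of them). At that background a call says little of the genes as a set, and the values below are read gene by gene. The labels do not say that hashtag samples came from separate animals, so these p-values measure the spread between these samples, which may be technical.

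Among the ligands, Tgfb3 ranged from 0 through a median of 6.37 to 22.7 CPM in 21 control samples and from 12 through 22.9 to 44.1 in 21 knockout samples. In 12 knockout samples it lay above every control sample, and the others overlapped. The log2 difference was 1.95 (SE 0.20, edgeR adjusted p = 4.87e-10). Tgfb1 had medians of 56.8 in controls and 55.1 in knockouts, with a log2 difference of 0.16 (SE 0.08, edgeR adjusted p = 0.0958). Tgfb2 had medians of 47.1 and 40.5, with a log2 difference of -0.17 (SE 0.09, edgeR adjusted p = 0.114). Leaving out the day 0 samples brought Tgfb2 past the threshold, at a log2 difference of -0.29 with an edgeR adjusted p of 0.0022.

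Of the receptors, Tgfbr1 ranged from 11.6 through 18.5 to 22.8 in controls and from 15.3 through 20.5 to 34.9 in knockouts, with 7 knockout samples above every control. Its log2 difference was 0.32 (SE 0.08, edgeR adjusted p = 0.000655), and the means of lines 15, 18, 19 and 24 were 18.1, 17.8, 18.7 and 26.3. The call on Tgfbr1 was lost without line 24. Tgfbr2 did not pass (log2 difference 0.01, SE 0.08, edgeR adjusted p = 0.965).

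Pmepa1 ranged from 5.82 through 17.7 to 52.6 in controls and from 27.8 through 105 to 145 in knockouts. It was above every control in 16 of 21 knockout samples, with a log2 difference of 2.19 (SE 0.17, edgeR adjusted p = 9.09e-13). Skil ranged from 5.15 through 10.9 to 19.2 in controls and from 12.2 through 28.3 to 60.0 in knockouts. It too was above every control in 16 of 21, with a log2 difference of 1.5 (SE 0.14, edgeR adjusted p = 7.14e-11). For both genes each knockout line had a higher mean than either control line: 80.4 and 110 against 19.9 and 21.2 for Pmepa1, 23.3 and 40.9 against 10.2 and 12.2 for Skil.

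Smad7 ranged from 15.1 through 36.6 to 61.3 in controls and from 19.1 through 56.5 to 99.2 in knockouts, with 9 knockout samples above every control. Its log2 difference was 0.82 (SE 0.14, edgeR adjusted p = 7.64e-06). The rise sat mostly in line 24, with a mean of 77.1 against 41.9, 27.0 and 45.7 in lines 15, 18 and 19. Tgfbi went the other way: it ranged from 29.4 through 247 to 326 in controls and from 4.26 through 71.2 to 171 in knockouts. In 18 of 21 control samples it was above every knockout sample, with a log2 difference of -1.35 (SE 0.28, edgeR adjusted p = 0.000149). The line means were 35.7 in line 19 and 130 in line 24, against 230 and 223 in lines 15 and 18.

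The 6 calls in line cells were lost when each line was reduced to 1 sum, with 2 lines against 2, where an exact permutation test over lines could not go below p = 0.33. The 2 mixed libraries held control and knockout tumours side by side, and within them Pmepa1 (1.95), Skil (1.23), Tgfb3 (1.35) and Tgfbi (-1.40, all log2 differences) still passed, while Smad7 (0.54, edgeR adjusted p = 0.222) and Tgfbr1 (0.24, edgeR adjusted p = 0.313) did not. Markers of other cell types were also counted in line cells: the summed fibroblast list, with 9 of 9 markers counted, was at 153 ± 140 in controls and 224 ± 146 in knockouts, the macrophage list at 43.4 and 79.7, and the T-cell list at 2.49 and 11.4. Their part in the results was not tested.

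**Figure D2:**
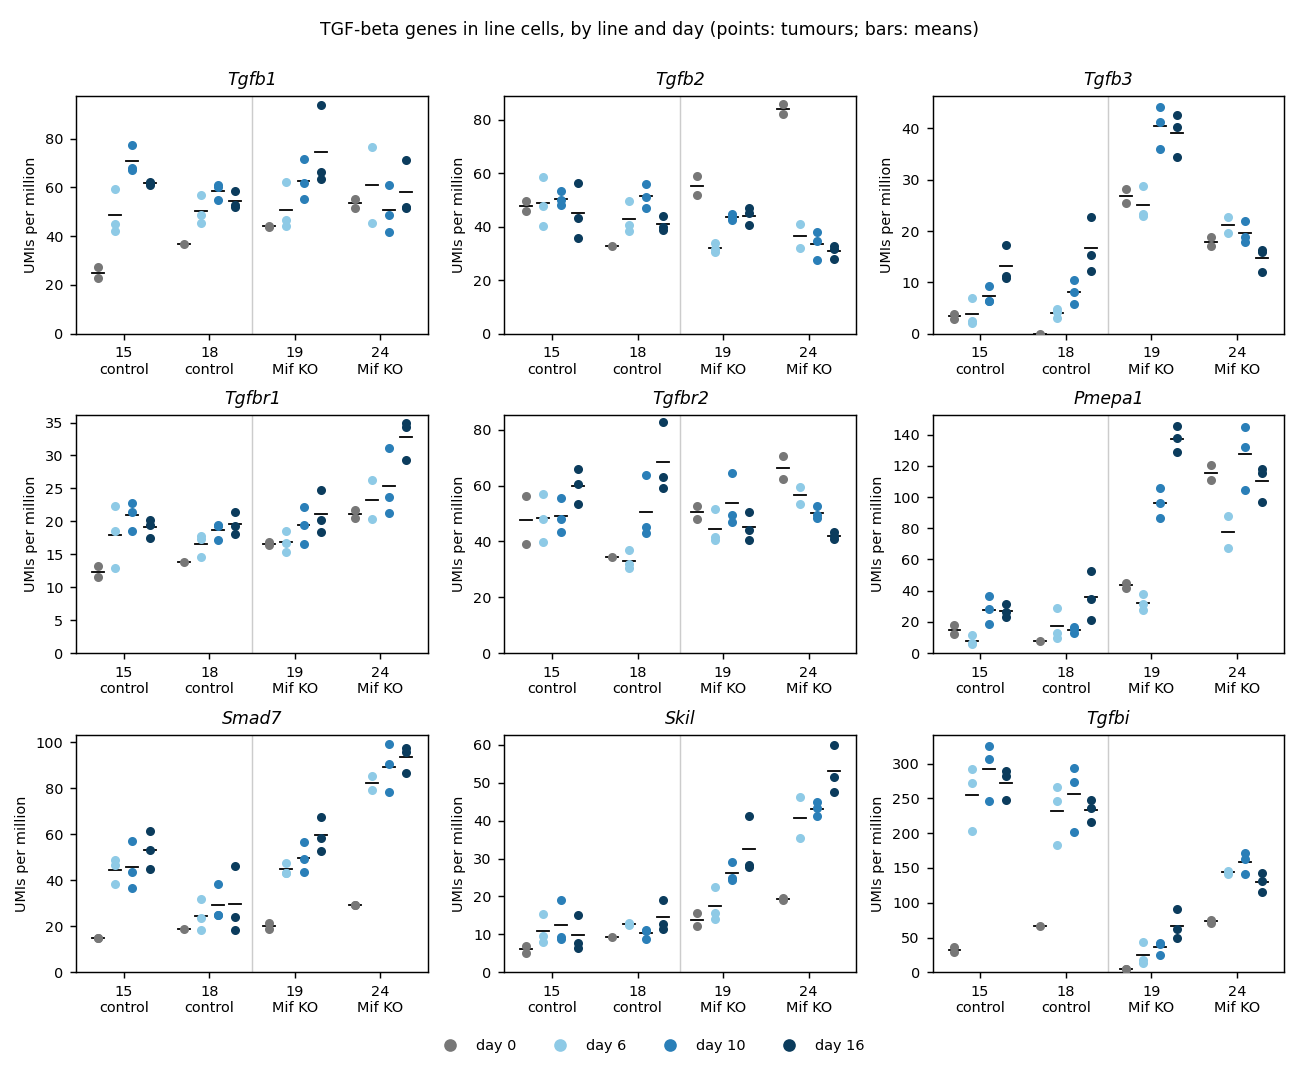
Levels of the 9 genes in line cells, in CPM, for control lines 15 and 18 and knockout lines 19 and 24 on the horizontal axis; each point is 1 hashtag sample, coloured by day, and each bar the mean of a line at a day. The mean of Pmepa1 in each knockout line lies above both control lines at each day, and Tgfbi is higher at the later days than at day 0 in each line.

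At day 0 samples of the knockout lines already stood apart from those of the control lines. All day 0 samples were in libraries of 1 line and none in a mixed library, so group, line and library cannot be told apart there. Line 18 gave 1 of the 3 control samples. All 4 knockout samples lay above all 3 control samples for 7 of the 9 genes, where 28.4% of 11840 genes did so, 18% had all knockout samples lower, and 46.4% did not overlap in either direction. Pmepa1 was at 41.9 to 120 CPM in knockout and 7.69 to 17.7 in control samples. Tgfb3 was at 17 to 28.1 against 0 to 3.86, and Skil at 12.2 to 19.6 against 5.15 to 9.23. Tgfb1 (44.0 to 55.3 against 23.0 to 36.9) and Tgfb2 (51.8 to 85.9 against 32.8 to 49.5), which did not pass over all days, also stood apart at day 0. Tgfbr1 did so by little (16.4 to 21.7 against 11.6 to 13.8) and Smad7 by less (19.1 to 29.4 against 15.1 to 19.0), whereas Tgfbr2 and Tgfbi overlapped.

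Days 6, 10 and 16 were then set against day 0 within lines. Tgfbi, Smad7, Skil, Tgfb1, Tgfb3 and Tgfbr1 rose and Tgfb2 fell, 6 and 1 of 9 genes where 55.7% of 12689 genes were called, 27% higher and 28.7% lower. Tgfbi went from a mean of 41.0 ± 30.5 at day 0 (n = 7) to 166 ± 103 at day 6 (n = 11), 186 ± 108 at day 10 (n = 12) and 176 ± 86.7 at day 16 (n = 12). Its log2 difference was 2.11 (SE 0.26, edgeR adjusted p = 7.42e-09). In line 19 it went from 4.39 at day 0 to 67.2 at day 16, and in line 15 from 32.8 to 273. Smad7 went from 21.1 ± 5.96 at day 0 to 46.0 ± 20.5, 53.6 ± 24.3 and 59.0 ± 25.2 at the later days, a log2 difference of 1.53 (SE 0.13, edgeR adjusted p = 1.71e-12). The means of both genes at each later day lay above the highest day 0 value. Mif in line cells also lay above day 0 in all later samples of lines 19 (9 of 9) and 24 (8 of 8). In line 24 it went from 226 to 227 CPM at day 0 to 342 to 729 later, where macrophages had a mean of 1137. In lines 15 and 18 all later samples lay below day 0. The part of RNA of other classes in the day differences of line cells was not tested.

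Skil rose by 1.05 (SE 0.17, edgeR adjusted p = 1.32e-06), Tgfb1 by 0.63 (SE 0.12, edgeR adjusted p = 2.36e-05) and Tgfbr1 by 0.49 (SE 0.09, edgeR adjusted p = 9.66e-06) on the log2 scale. For Tgfb1 all 9 later samples lay above day 0 in lines 15 and 18, and 8 of 9 in line 19. In line 24 it lay above day 0 in 3 of 8 and below it in 4. Tgfb2 fell by 0.46 (SE 0.12, edgeR adjusted p = 0.00115), from 58.1 ± 19.4 at day 0 to 40.2 ± 7.70 at day 16, and lost its call without line 24 (log2 difference -0.07). The fall was not seen in each line: all later samples lay below day 0 in lines 19 (9 of 9) and 24 (8 of 8), while in line 18 all 9 lay above its single day 0 sample and in line 15 4 lay above and 3 below. The difference between lines was not tested. Tgfb3 rose by 0.56 (edgeR adjusted p = 0.0355), a call lost without line 15, 18 or 19. Pmepa1 did not pass (0.43, SE 0.22, edgeR adjusted p = 0.103), and Tgfbr2 stood at 0.01.

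Between days 6 and 16, 37.3% of genes in line cells were called, 19.8% higher and 17.5% lower, and 3 of the 9 genes rose. Pmepa1 went from 29.8 ± 26.4 to 77.7 ± 50.1 (log2 difference 1.33, SE 0.21, edgeR adjusted p = 1.37e-05). The mean of line 15 went from 7.96 to 27.0, that of line 18 from 17.1 to 36.2, that of line 19 from 32.4 to 137 and that of line 24 from 77.5 to 110. Tgfb3 went from 12.8 ± 10.5 to 20.9 ± 11.6 (log2 difference 1.05, SE 0.22, edgeR adjusted p = 0.000283). In line 24 alone its mean was lower at day 16 (14.7) than at day 6 (21.2); the difference between lines was not tested. Tgfbr1 passed narrowly (0.23, SE 0.08, edgeR adjusted p = 0.0228) and lost its call without line 18, 19 or 24. The plot of line cells by day shows these courses.

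In T cells the question was whether response genes differed between tumours of the 2 groups. Pmepa1, Skil and Smad7 rose in knockout tumours, Tgfb1, Tgfbr2 and Tgfbi did not pass, and Tgfb2, Tgfb3 and Tgfbr1 were under the count filter. Of the 6 genes tested 3 were called, all higher, where 9.38% of 3178 genes were called, 3.96% higher and 5.41% lower. Control tumours gave 20 to 99 T cells each (median 41, n = 15) and knockout tumours 41 to 499 (median 153, n = 17).

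Skil ranged from 0 through 41.3 to 84.7 CPM in control and from 47.7 through 99.2 to 138 in knockout tumours. In 11 of 17 knockout tumours it was above every control, and in 10 of 15 control tumours below every knockout. The log2 difference was 1.30 (SE 0.21, edgeR adjusted p = 0.000148). Skil can pass the count filter through the knockout tumours alone, where it is high. Its call was lost in 3 of 16 alternatives, and the fit without a count filter was not among these. The control tumour without a Skil count, line 15 day 16 B, held 20 T cells and 54146 UMIs, which allows a level of up to 55.4 CPM.

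Smad7 ranged from 0 through 65.5 to 197 in control and from 106 through 138 to 185 in knockout tumours. Of 15 control tumours, 11 lay below every knockout tumour, while the highest control was above them all. The log2 difference was 0.74 (SE 0.18, edgeR adjusted p = 0.00507). The tumour at 0, line 18 day 10 B, had 23 T cells and 47127 UMIs, for a limit of 63.7 CPM. Pmepa1 ranged from 20.02 through 92.3 to 215 in control and from 95 through 148 to 234 in knockout tumours, with wide overlap and a log2 difference of 0.85 (SE 0.18, edgeR adjusted p = 0.00277).

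By line, the T-cell means of Skil were 44.8 (line 15), 34.1 (line 18), 90.1 (line 19) and 101 (line 24). Those of Smad7 were 91.6, 65.9, 143 and 133, and those of Pmepa1 110, 79.2, 157 and 156, so both knockout lines stood above both control lines for each gene. Tgfbi ran the opposite way without passing (log2 difference -0.83, SE 0.32, edgeR adjusted p = 0.0938), at 65.4, 126, 34.3 and 68.4. Over 14 alternatives its log2 difference ran from -1.39 to -0.0003 and passed in 2. In the mixed libraries its means were 73.1 in control and 66.9 in knockout tumours. Tgfb1, the ligand T cells themselves express, had medians of 157 in control and 154 in knockout tumours (log2 difference 0.13, edgeR adjusted p = 0.650). Tgfbr2, the receptor through which they sense it, had medians of 84.9 and 80.7 (log2 difference -0.02, edgeR adjusted p = 0.986).

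The 3 T-cell calls did not hold when library was a term: Pmepa1 was then at 0.47 (edgeR adjusted p = 0.535), Skil at 0.98 (edgeR adjusted p = 0.132) and Smad7 at 0.63 (edgeR adjusted p = 0.313), nor within the mixed libraries alone (0.46, 1.01 and 0.63, with edgeR adjusted p of 0.417, 0.101 and 0.366). With 1 sum per line they were lost too (0.91, 1.39 and 0.76, with edgeR adjusted p of 0.301, 0.186 and 0.271). In the mixed libraries Skil was at 41.3 to 84.7 in 5 control and 77.1 to 138 in 6 knockout tumours, Smad7 at 10.5 to 135 and 127 to 162, and Pmepa1 at 41.9 to 215 and 95 to 208. Pmepa1 and Smad7 also lost their calls without line 24 (0.79, edgeR adjusted p = 0.0651, and 0.80, edgeR adjusted p = 0.0506) or without line 18 (0.61, edgeR adjusted p = 0.0973, and 0.63, edgeR adjusted p = 0.0709).

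Genes abundant in line cells also had counts in T cells. Of these the 5 with the lowest ratio stood at 11.6 to 25.8% of their line-cell level in control and at 17.6 to 24.8% in knockout T cells. At the upper value, line cells would bring 5.46 of 83.2 CPM of Pmepa1 in control and 23.3 of 151 in knockout T cells. For Skil the same reckoning gave 3.01 of 36.9 and 7.39 of 96.1, and for Smad7 9.32 of 84.7 and 14.8 of 137. With 25% of each T-cell sum taken off as line-cell RNA, the log2 differences were 0.68 for Pmepa1 (edgeR adjusted p = 0.0320), 1.21 for Skil (edgeR adjusted p = 0.00107) and 0.75 for Smad7 (edgeR adjusted p = 0.0264). For Tgfb2 the reckoning gave 11.9 of 16.3 in control and 9.54 of 15.1 in knockout T cells, which is most of its T-cell level. For Tgfbi it gave 66.5 of 91.1 in control and 16.3 of 54.3 in knockout T cells, and the part of line-cell RNA in its T-cell difference was not tested. For Tgfb3 it gave 2.18 against a level of 1.48 in control and 7.73 against 8.33 in knockout T cells. Fibroblast and macrophage marker lists stood at like levels in T cells of both groups (88.7 and 92.0, 237 and 250 CPM).

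**Figure D3:**
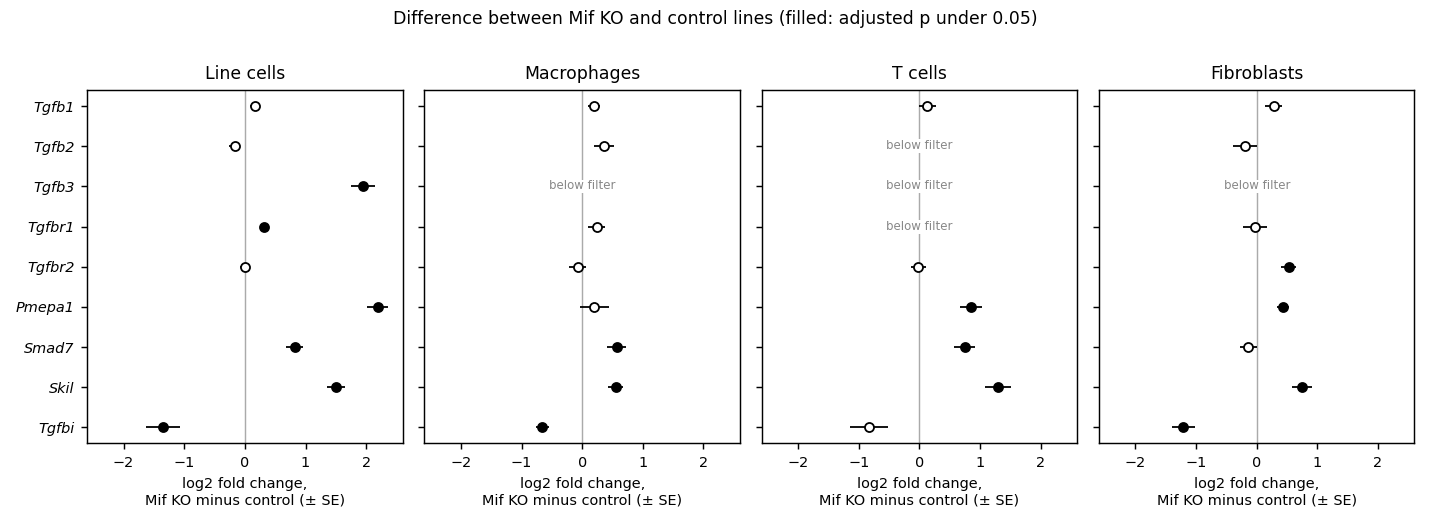
Log2 fold changes of the 9 genes, knockout minus control, in line cells, macrophages, T cells and fibroblasts, with bars of 1 standard error; filled points passed an adjusted p of 0.05 and genes under the count filter are marked so. Skil is filled above 0 in all 4 classes, and Tgfbi below 0 in line cells, macrophages and fibroblasts.

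Subsets of T cells are given as counts summed per line over tumours, without a test. Several of these sums hold few cells, so their counting error is large. In CD8 T cells, the cytotoxic lineage, Skil was at 51.1 (line 15), 26.4 (line 18), 64.1 (line 19) and 75.0 (line 24) CPM, over 77, 127, 257 and 741 cells. In conventional CD4 T cells, the helper lineage, it was at 37.8, 34.0, 88.3 and 144, over 57, 47, 248 and 309 cells. In Foxp3-positive cells, the regulatory lineage, it was at 9.7, 37.3, 109 and 151, over 42, 47, 56 and 71 cells. In these pooled sums Skil was higher in both knockout lines than in both control lines in each subset. Smad7 had that order in CD8 T cells (68.1, 72.5, 155 and 131) but not in conventional CD4 T cells (114, 119, 94.8 and 147). A fit of CD8 T cells alone, added after seeing the data, had 5 control and 13 knockout tumours with 20 such cells and tested 4 of the 9 genes. Over all genes 3.18% were called, and 2.42% higher. Pmepa1 had a log2 difference of 1.75 in it (SE 0.35, edgeR adjusted p = 0.00419). With 13 knockout tumours against 5, a gene can pass the count filter through the knockout tumours alone, so no call on Pmepa1 is read from this fit. Smad7 (0.92, edgeR adjusted p = 0.101), Tgfb1 (0.30, edgeR adjusted p = 0.550) and Tgfbr2 (-0.01, edgeR adjusted p = 0.996) did not pass, and Skil was under the count filter.

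The plot of ligand source beside T-cell response sets the part of each ligand held by line cells, line by line, next to Pmepa1, Smad7 and Skil in T cells. Line 19 and line 24 differed most in where Tgfb1 came from, 79.6 and 41.5% from line cells. With 4 lines no correlation was computed.

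**Figure D4:**
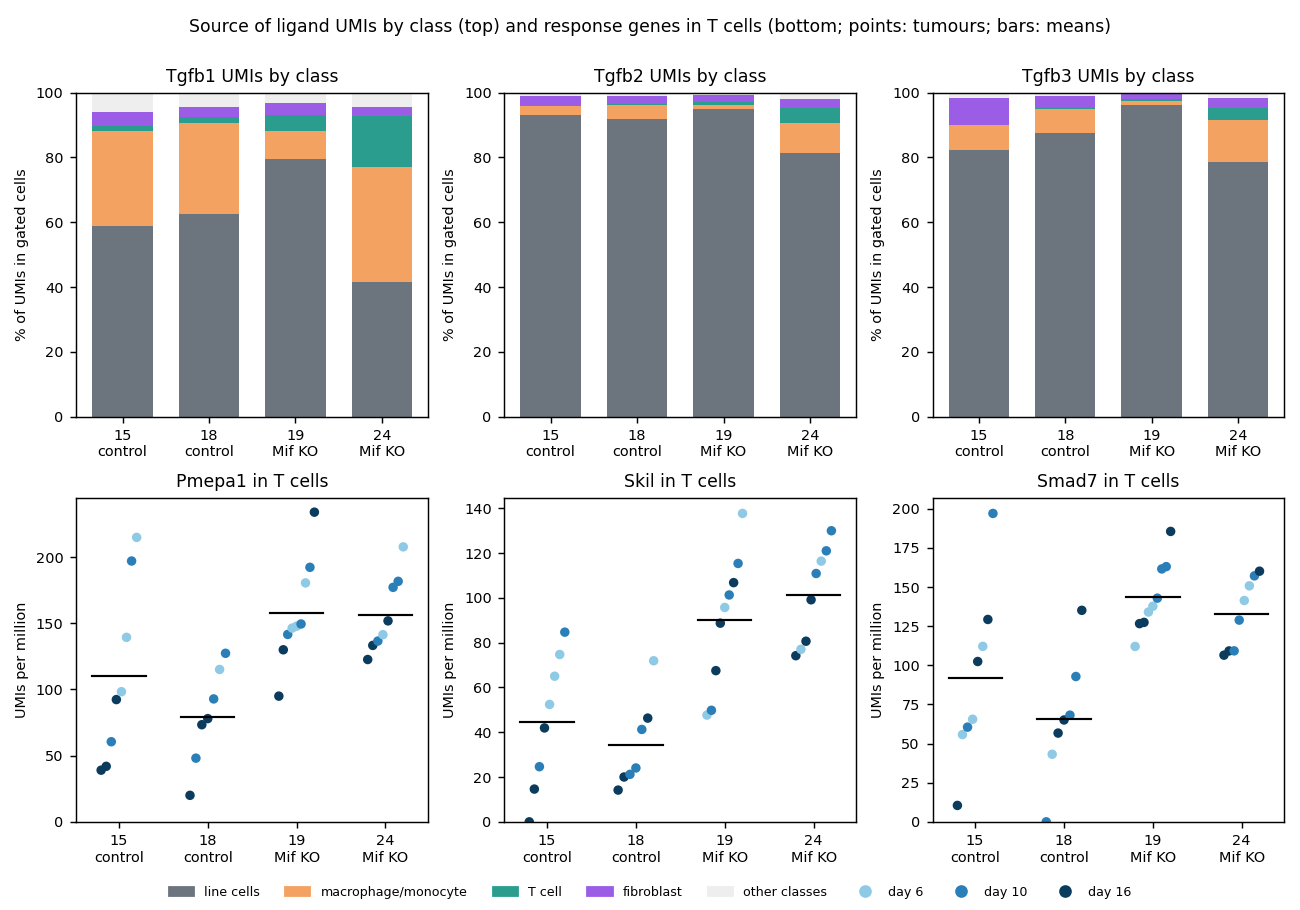
Top, the percent of each ligand's UMIs in gated cells held by each class, for lines 15, 18, 19 and 24; bottom, levels of Pmepa1, Skil and Smad7 in T cells of the same lines in CPM, each point 1 tumour coloured by day and each bar a mean. Line cells hold 41.5 to 79.6% of Tgfb1 and 81.5 to 94.8% of Tgfb2, and T-cell Skil is higher in lines 19 and 24 (90.1 and 101) than in 15 and 18 (44.8 and 34.1).

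In macrophages and monocytes, Skil and Smad7 rose and Tgfbi fell in knockout tumours. These were 3 of 8 genes tested, against 35.4% of 7792 genes (18.3% higher, 17% lower), so the share is near the background. Tgfbi ranged from 919 through 1158 to 1910 CPM in 18 control tumours and from 506 through 755 to 1037 in 17 knockout tumours of days 6 to 16, 15 of which lay below every control. The knockout group also held the 30-cell day 0 sum of line 24 (Tgfbi at 113), which has no control counterpart; it is left out of the ranges given here for macrophages but stands in the line 24 means. Its log2 difference was -0.66 (SE 0.10, edgeR adjusted p = 1.23e-05), a call lost only with 1 sum per line (edgeR adjusted p = 0.117). Macrophages express Tgfbi far above any other class here, and dendritic cells, for which no test was run, had medians of 332 in 7 control and 131 in 11 knockout tumours.

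Macrophage Skil ranged from 34.1 through 69.1 to 103 in control and from 68.1 through 94.8 to 130 in knockout tumours (log2 difference 0.55, SE 0.12, edgeR adjusted p = 0.000609). Smad7 ranged from 13.8 through 32.8 to 43.3 and from 11.3 through 43.7 to 64.6 (0.57, SE 0.15, edgeR adjusted p = 0.00404). Smad7 rested on line 24, with line means of 34.5, 28.3, 31.8 and 54.4 in the order of lines 15, 18, 19 and 24, and a log2 difference of 0.10 without line 24 (edgeR adjusted p = 0.787). Smad7 lost its call in 6 of 15 alternatives, also without line 18 (0.41, edgeR adjusted p = 0.0572), with library as a term (0.17), in the mixed libraries (0.17), with 1 sum per line (0.61) and after subtraction of line-cell RNA (0.38). Skil lost its call in 4 of 15: without line 24 (edgeR adjusted p = 0.166), within the mixed libraries (0.18), with library as a term (0.18, edgeR adjusted p = 0.631) and with 1 sum per line (0.58). Pmepa1 (0.20, SE 0.24, edgeR adjusted p = 0.542), Tgfb1 (0.19, edgeR adjusted p = 0.139), Tgfb2 (0.36, edgeR adjusted p = 0.0742), Tgfbr1 (0.24, edgeR adjusted p = 0.188) and Tgfbr2 (-0.08, edgeR adjusted p = 0.696) did not pass. Tgfb3 was under the filter, at a median of 5.12 in control and 14.4 in knockout tumours, with 17 of 17 knockout tumours above the control median. Line cells, where Tgfb3 also rose, would bring up to 1.86 of 5.67 CPM in control and 6.82 of 14 in knockout macrophages, and their part in the difference was not tested. Tgfb3 was tested in 9 alternatives, where it was higher by 1.0 to 1.41 on the log2 scale. It can pass the count filter through the knockout samples alone, where it is high, so no call is read from these fits.

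From day 6 to day 16, 12.4% of genes in macrophages were called, 6.66% higher and 5.71% lower, and 4 of the 9 genes were among them. Tgfbr2 rose from 40.4 ± 18.9 (n = 11) to 64.6 ± 18.7 (n = 12), a log2 difference of 0.77 (SE 0.16, edgeR adjusted p = 0.00158) that held without any 1 line. Pmepa1 (0.81, SE 0.27, edgeR adjusted p = 0.0417) and Tgfb1 (0.36, SE 0.11, edgeR adjusted p = 0.0302) rose, and Tgfb2 fell (-0.69, SE 0.18, edgeR adjusted p = 0.00854). Each of these 3 calls was lost without line 15. Pmepa1 lost its call in 4 of 11 alternatives, also without line 19, with another hashtag rule and with stricter cells. Tgfb1 lost it in 2, also without line 18, and Tgfb2 in 2, also with the other hashtag rule. Line cells would bring up to 10.1 of 13.2 CPM of Tgfb2 in control and 8.42 of 16.98 in knockout macrophages. The part of line-cell RNA in the fall of Tgfb2 was not tested. In T cells 0.847% of 3660 genes were called between the same days, 0.601% higher and 0.246% lower, and of the 6 genes tested only Tgfb1, which went from 134 ± 29.5 (n = 9) to 207 ± 55.2 (n = 12; log2 difference 0.71, SE 0.17, edgeR adjusted p = 0.0394). That call was lost in 4 of 12 alternatives, among them those without line 15, 19 or 24.

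Fibroblasts, compared after the other classes had been seen, had Pmepa1, Skil and Tgfbr2 higher and Tgfbi lower in knockout tumours, 4 of 8 genes tested where 18.4% of 4931 genes were called, 9.53% higher and 8.82% lower. Tgfbi ranged from 85.8 through 233 to 344 in 17 control and from 39.7 through 98.6 to 166 in 13 knockout tumours (log2 difference -1.21, SE 0.19, edgeR adjusted p = 1.05e-05). Pmepa1 ranged from 306 through 390 to 706 and from 350 through 561 to 720 (0.43, SE 0.09, edgeR adjusted p = 0.000845), so the groups overlapped through most of their range. Tgfbr2 had medians of 91.7 and 139 (0.53, SE 0.13, edgeR adjusted p = 0.00226), and Skil of 37.5 and 74.0 (0.75, SE 0.16, edgeR adjusted p = 0.000638). Pmepa1, Skil and Tgfbr2 each lost their call in 5 of 14 alternatives, all 3 of them with library as a term, in the mixed libraries and with 1 sum per line. Pmepa1 and Skil also lost it without line 19 or with at least 50 cells, and Tgfbr2 without line 15 or with another hashtag rule. Tgfbi lost its call in 1 of 14. Over the 14 the log2 differences were 0.29 to 0.56 for Pmepa1, 0.25 to 0.90 for Skil, 0.30 to 0.84 for Tgfbr2 and -1.83 to -0.99 for Tgfbi. Line-cell RNA was neither reckoned nor taken off in fibroblasts. In summed counts of days 6 to 16, Tgfbi stood at 257 CPM in control and 65.5 in knockout line cells, against 212 and 101 in fibroblasts. The part of line-cell RNA in the fibroblast differences was not tested.

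Other genes of the pathway, 52 in 5 lists, were counted in the same fits. In line cells, where 26.2% of genes were called higher and 25.2% lower, 7 of the 9 genes tested that hold or release latent ligand rose and 0 fell (median log2 difference 0.96, where it was 0.00 over all genes), led by Ltbp3 (1.59) and Thbs1 (1.04), which encode a latent TGF-β binding protein and thrombospondin, an activator. Of 14 known TGF-β-induced targets 7 rose and 0 fell (median 0.31), led by the matrix genes Postn (3.27) and Col1a1 (1.46) and by Acta2 (1.12), smooth muscle actin. Postn was high in line 24 alone (means of 4.87, 3.17, 2.65 and 86.6 CPM in lines 15, 18, 19 and 24), and Col1a1 of line 24 lay below control line 18 (39.8, 206, 418 and 69.4). Among signal transducers Smad3 rose (1.37) while Smad2 (-0.37) and Smad4 (-0.15) fell, and 4 of 7 inhibitors rose, with Ski at 0.79 (all log2 differences). Postn and Col1a1 are also products of fibroblasts, whose marker list was higher in knockout line cells, as given above; its part in their levels was not tested.

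In T cells, where 9.38% of genes were called, 0 of the 8 targets tested passed by edgeR's quasi-likelihood test, with 1 at an unadjusted p under 0.05 and 0 by DESeq2 (median log2 difference 0.21, against -0.02 over all genes). None of 2 inhibitors or 1 signal transducer passed either, with 1 inhibitor at an unadjusted p under 0.05 and 0 by DESeq2. Thbs1 alone passed among 4 latency genes (log2 difference 1.65, SE 0.34, edgeR adjusted p = 0.00183); its mean was 56.3 in control and 176 in knockout T cells, against 201 and 501 in line cells. With 25% of each T-cell sum taken off as line-cell RNA, Thbs1 no longer passed the count filter. In macrophages, where 18.3% of genes were called higher, 6 of 10 targets rose (median 0.63, against 0.00 over all genes), led by Col1a2 (1.30) and Col1a1 (1.17), and 4 of 7 inhibitors rose, with Bambi, a decoy receptor, at 0.53 and Smurf2, a ubiquitin ligase of the pathway, at 0.38. With the same 25% taken off macrophage sums, Col1a2 (1.73, edgeR adjusted p = 0.00980) kept its call and Col1a1 (1.26, edgeR adjusted p = 0.102) lost it. Of the 4 inhibitors Smurf2 (0.39, edgeR adjusted p = 0.0859) and Ski (0.23, edgeR adjusted p = 0.175) lost it, Tgif1 (0.50, edgeR adjusted p = 0.00608) kept it and Bambi was not tested there. The macrophage means of Col1a1 were 25.4, 75.5, 171 and 47.5 CPM in lines 15, 18, 19 and 24, so that line 24 lay below line 18. Fibroblast RNA was not taken off. Fibroblast markers stood at 0.22 to 1.33% of their fibroblast level in control and 0.28 to 1.55% in knockout macrophages. Their RNA's part in Col1a1 and Col1a2 was not tested. In fibroblasts, where 9.53% of genes were called higher and 8.82% lower, 6 of 14 targets rose and 2 fell (median 0.24), with Ccn2, a classic TGF-β target, at 1.76 and Postn at 1.72, and 3 of 3 related ligands fell, led by the activin subunit Inhba (-0.86). Of 7 latency genes Ltbp2 rose (0.55), with means of 115, 107, 198 and 91.7 in lines 15, 18, 19 and 24, so that line 19 alone was high. Thbs1 (-0.72) and Ltbp1 (-0.70) fell; Thbs1 had risen in line cells.

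Whether the control-knockout difference was the same in the 2 mixed libraries was tested as an interaction in 12 tumours. In line cells, where 12.8% of genes differed by that test, it differed for Smad7 (0.01 in the first, lines 15 and 18 against 19, and 1.38 in the second, line 18 against 24; difference 1.37, SE 0.23, edgeR adjusted p = 0.00581). It also differed for Tgfbi (-2.04 and -0.40, difference 1.64, SE 0.36, edgeR adjusted p = 0.0164). In macrophages edgeR called 0 of 7948 genes by that test, with 546 at an unadjusted p under 0.05, and in T cells 3 of 3775 (0.0795%), so nothing is read from it for the 9 genes there.

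The genes whose profile over 37 combinations of class and line, summed over days, was most like that of Tgfb1, Tgfb3 or Tgfbi were picked among 12783 genes by Pearson's r of log2 levels, as a description. For Tgfb1 they were Fli1 (r = 0.85), Ctla2b (0.84) and Itpkb (0.82). For Tgfb3 they were Gm26802 (0.76), Fzd2 (0.76) and Gstm2 (0.75). Tgfbi was most like Psap (0.86), Ctsb (0.79) and Cstb (0.78). The points share libraries and depth, and much of each r is the difference between classes.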

How the data were processed

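All 6 hashed single-cell libraries were analysed from the raw UMI count matrices deposited by the authors, in which gene rows and hashtag rows stand together; Cell Ranger 6.0.0 and the build mm10 are named in the submitters' processing notes. The line, day and letter of each hashtag come from the authors' hashtag sheet, and day is its other deposited value. Barcodes were kept from 300 genes up and to 15% mitochondrial UMIs, and were demultiplexed with HTODemux (Seurat 5.3.0, positive quantile 0.99), and barcodes of several hashtags were removed as doublets; no other doublet caller was run. A class took cells with at least 3 markers of its list (T, NK, dendritic cells) or 4 (macrophages, fibroblasts, osteoclast-like cells). Cells that met lists of different lineages were left out, so doublets within a sample and lineage remain. Among lymphocytes and among myeloid cells, a cell that met several lists stayed in. There T cells took precedence over NK cells. Neutrophils, osteoclast-like cells and dendritic cells, in that order, took precedence over macrophages. Line cells had at most 2 markers of any host list, at most 1 T-cell marker and no Ptprc. Counts were summed per hashtag sample and class where at least 20 cells were present, after leaving out 2 hashtags with under 0.1% of the hashtag counts.

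Sums were tested with edgeR 4.0.16 (quasi-likelihood, TMM, filterByExpr; R 4.3.3), with Benjamini-Hochberg adjustment over all genes of a comparison and a threshold of 0.05. Knockout minus control had day as covariate, and day contrasts had line as covariate. A line lies within 1 group, so line could not be a term beside group. The single macrophage sample of day 0 (line 24, 30 cells) is taken up by its day term and adds nothing to the group contrast. DESeq2 1.42.0, other size factors, no count filter, other cell and hashtag limits, each line left out in turn, library as a term, the mixed libraries alone and 1 sum per line were alternatives. The fibroblast comparison, the subtraction of line-cell RNA, CD8 T cells alone and T cells without the 10% of most UMIs were chosen after seeing the data. Counts were also simulated around 1 mean per gene, with 200 genes changed. A 2-fold change (1 on the log2 scale) was found for 93% of 100 such genes in line cells, 97% in macrophages and 99% in T cells. These fits held 11840, 7792 and 3178 genes, with 8, 17 and 4 false calls among unchanged genes. The simulation had no line, library or day effect, so its rates do not cover the nesting of samples in lines and libraries.

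The 9 genes are named throughout; of other pathway genes, up to 3 per list and comparison with the largest change past the threshold and a mean of at least 5 CPM. The members and lists were chosen with earlier results of these data known. The median passing cell held 3072 to 9122 UMIs across libraries, and T-cell sums 47127 to 1172546 per tumour, which limits the precision of genes with few counts. The genes with a profile like that of Tgfb2 are not reported here.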

Additional observations from a re-analysis of the deposited data

Results flagged for a closer look

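Within each line and class of 4 to 10 samples, the highest or lowest sample was set against the others by Dixon's criterion. Of 153 such groups 14 had a sample standing apart, where chance gives about 1 in 20. Values are in CPM.

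In T cells, Tgfb1 stood at 382 in line 18 day 10 B (18 counts, 23 cells; the next sample was at 201), and Tgfbi at 139 in line 24 day 10 A. In line cells, Skil was at 19.2 in line 18 day 16 C, above the others of its line, and Tgfbi at 66.2 in line 18 day 0 A, below them; that sample is the only day 0 sample of its line. In fibroblasts, Tgfb2 was lowest at 24.6 in line 18 day 10 C and Tgfbi highest at 105 in line 24 day 6 A.

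The macrophage sum of line 24 day 0 B, of 30 cells, was flagged against the later days for 3 genes: Skil at 37.8, Tgfb2 at 90.6 and Tgfb3 at 0. For Tgfb3 this 0 allows a level of up to 22.7 CPM, above the highest knockout value of 21.4. Its level there cannot be told apart from the later days. Dendritic cells had 5 such samples. Skil was highest at 290 in line 19 day 10 C (18 counts) and at 244 in line 24 day 10 C (15 counts). Tgfb2 was highest at 58.0 in line 19 day 16 B, Tgfb3 at 7.24 in line 15 day 6 A, which is 1 count, and Tgfbr1 lowest at 11 in line 24 day 6 C.

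The knockout effect in line cells differed between the 2 mixed libraries, by an interaction term in edgeR's fit, for Tgfbi (difference of log2 fold changes 1.64, edgeR adjusted p = 0.0164) and Smad7 (1.37, edgeR adjusted p = 0.00581). Of all genes tested, 12.8% differed in this way.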

How the results depend on the processing

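Of 31 called results on the 9 genes, 337 of 407 alternative values kept direction and call, 70 lost the call and 0 changed sign. In line cells the limit of at least 50 cells left out no sample, so its values there repeat the main fit and could not differ. Of 33 uncalled results, 359 of 423 values stayed so, 18 passed in the same direction and 46 changed sign. Among these 46, Tgfbr1 in fibroblasts passed between groups in 1 value, at an edgeR adjusted p of 0.0123. The 18 were as follows. Between groups Tgfbi passed in T cells (2 values), and Tgfb1 and Tgfb2 in line cells (1 each). Pmepa1, Tgfb1, Tgfb2 and Tgfbr1 passed in macrophages (1 each). From day 6 to 16 Skil passed in macrophages (3) and line cells (2), and Smad7, Tgfb1 and Tgfbr2 in line cells (1 each). Against day 0 Pmepa1 passed in line cells (2). Causes were not tested.

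Genes called between groups in line cells (6082) came to 1730 with library as a term, 501 in the mixed libraries alone and 0 with 1 sum per line by edgeR's quasi-likelihood test, where 1181 had an unadjusted p under 0.05; without 1 line they ranged from 4397 to 7521. In macrophages (2756) the same settings gave 443, 474 and 4, and leaving out a line 847 (without line 24; 1741 without line 15) to 3213. In T cells (298) they gave 14, 15 and 1, no count filter 590, subtraction 161, CD8 T cells alone 55, and leaving out a line 50 (without line 24) to 274. In fibroblasts (905) they gave 389, 284 and 470, no filter 1407, at least 50 cells 401, and leaving out a line 514 (without line 15) to 1001. Between days 16 and 6, line cells (4738) gave 2497 (without line 18) to 5310, macrophages (1305) 310 (without line 15; 764 without line 18) to 1434, and T cells (31) 8 (without line 19; 10 without line 24) to 33. T cells gave 64 by DESeq2, 110 without a filter, 16 with stricter cells (at least 1000 UMIs, at most 10% mitochondrial) and 60 without the cells of most UMIs. Tumour days against day 0 in line cells (7070) ranged from 6116 to 7168 leaving out a line.

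Values that changed sign, all of results uncalled in the main fits, were these log2 fold changes. Among them 1 passed, for Tgfbr1 in fibroblasts (edgeR adjusted p = 0.0123). Between groups, Tgfbr2 in T cells was 0.15 without a filter, 0.058 with another hashtag rule (highest at least 3 times the next), 0.13 with at least 50 cells, 0.19 with library as a term, 0.16 in the mixed libraries, 0.056 with 1 sum per line, 0.063 after subtraction, 0.057 without the cells of most UMIs, and -0.11 to 0.12 leaving out a line. In line cells Tgfbr2 was -0.083 with library as a term, -0.065 in the mixed libraries, -0.041 without day 0, and -0.057 to 0.080 leaving out a line. In macrophages Pmepa1 was -0.31 with library as a term, -0.31 in the mixed libraries, -0.18 after subtraction, and -0.20 to 0.53 leaving out a line. Tgfbr1 there was -0.084 and -0.079 under those library settings and -0.13 to 0.56 leaving out a line, and Tgfbr2 -0.19 to 0.018. In fibroblasts Tgfb1 was -0.048 with at least 50 cells, Tgfb2 0.046 with the other hashtag rule and 0.019 with a stricter gate, and Tgfbr1 0.18 with library as a term, 0.096 with 1 sum per line and -0.41 to 0.82 leaving out a line. Between days 16 and 6 in T cells, Smad7 was -0.11 and Tgfbr2 -0.17 with the other hashtag rule, Tgfbr2 -0.084 with stricter cells, -0.085 with a stricter gate and -0.22 to 0.067 leaving out a line. In macrophages Tgfb3 was -0.035 with the other hashtag rule and -0.032 to 0.57 leaving out a line. In line cells Tgfb2 was -0.21 to 0.032, Tgfbi -0.087 to 0.50 and Tgfbr2 -0.015 to 0.40, and against day 0 Tgfbr2 -0.050 to 0.17.

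Among line cells, macrophages, T cells, fibroblasts and dendritic cells, the class of highest level was the same under the other cell rules except for Tgfb3, which moved between fibroblasts and line cells; NK and osteoclast-like cells, which lead for some genes, were not part of that check. Levels that moved by over 1 SD were Tgfb2 (30.9) and Tgfb3 (14.0) in T cells and Tgfbr2 in dendritic cells (36.6) with all cells, hashtag or not, and Pmepa1 (92.6) and Tgfbi (88.0) in dendritic cells with a stricter gate. No paired analysis was possible over all samples because the labels give the lines no shared replicate number. In the hashtag sheet the letter C stands only in the mixed libraries and A and B only in those of 1 line. Letters thus follow the library, whose term is given above. The first mixed library held lines 15 and 19 at days 6, 10 and 16. The second held lines 18 and 24 at days 6 and 10. These samples were not tested as pairs. Conventional CD4 T cells alone could not be fitted, since the design was not of full rank. Pooling each line to 1 sum leaves 2 lines a group, and library as a term leaves mainly the mixed libraries to compare groups, so both use fewer samples for the contrast.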

Other observations

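The 3 samples marked WT in the hashtag sheet, 1 each at days 6, 10 and 16 and all in 1 mixed library, had Mif at 2246 to 2618 CPM in line cells, within the range of the control lines. Their line cells had Pmepa1 at 23.6 to 60.3, Skil at 15.9 to 25.7, Smad7 at 63.7 to 92.0, Tgfb3 at 11.1 to 23.0 and Tgfbi at 144 to 154. In the 2 control lines of that comparison the means had been 19.9 and 21.2 for Pmepa1, 41.9 and 27.0 for Smad7, and 230 and 223 for Tgfbi. The WT samples thus had Smad7 above the highest control sample (61.3) and Tgfbi near the mean of line 24 (130). These line means include day 0 samples, which the WT samples lack. Over the later days alone the Tgfbi medians were 282 and 246 in lines 15 and 18 and 142 in line 24. In their T cells Skil was at 61.9 to 116, Smad7 at 91.2 to 167 and Pmepa1 at 76.4 to 134. In macrophages Tgfbi was at 775 to 1016, a range that lies across the lowest control value (919). No test was made, since the labels of the lines do not name a WT line and there is 1 sample a day.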
